A study of Mus musculus with 8 samples.

Results

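Regions of the mouse genome that carried a methylation peak in fetal gut epithelium at E14.5 and in adult intestinal stem cells (ISC), but in neither enterocytes nor the earlier fetal stage E12.5, were described. The fetal stages are named by the embryonic day. The peak lists of 8 libraries were merged wherever peaks shared at least 1 bp, and a region was a member when both E14.5 and both ISC libraries had a peak in it and none of the 4 other libraries did. On the 19 autosomes 5560 of 471333 regions met this rule, 1.18% of them. All 8 lists entered the rule, so the counts and levels below describe the choice and are given without a test.

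The study profiled DNA methylation by MBD sequencing, in which a methyl-CpG-binding protein pulls down methylated fragments, in 4 groups of 2 biological replicates. The embryonic groups were small intestinal epithelium at E12.5 and E14.5, sorted for the epithelial surface protein EpCAM and against CD31 (endothelium) and CD45 (leukocytes). The adult groups were from Lgr5EGFP-Cre-ERT males at postnatal day 60. ISC were sorted for high EGFP from the Lgr5 locus, and enterocytes as cells positive for EpCAM and negative for CD31 and CD45. The strain of all animals was a mixture of C57BL/6 and CD1. The genotype and sex of the embryos, and whether animals were pooled, are not given in the sources used here. EpCAM marks all epithelial cells, so the enterocyte gate alone does not part enterocytes from other epithelial types, and marker genes could not be used to check the cell types, because the peaks were not assigned to genes.

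In mammals DNA is methylated mostly at the cytosine of CpG dinucleotides, and most CpGs outside CpG islands are methylated in somatic cells. Dnmt1 copies the marks at each division, Dnmt3a and Dnmt3b place new ones, and Tet enzymes oxidise them as a step towards removal. Loss of methylation at a distal site is often found where an enhancer becomes active. In the intestinal crypt the Lgr5 stem cells divide steadily, and their progeny become enterocytes, the absorptive cells of the villus, within days. The study asked how chromatin states change as adult stem cells are specified and differentiate. The members had a call at E14.5 that was missing at E12.5, and had none in the enterocyte libraries. The E12.5 lists were much shorter, with 100314 and 84990 peaks against 317772 and 338262 at E14.5. The part of this difference in the missing E12.5 calls was not tested. A peak list shows where tags passed a caller's cutoff and not the percent of methylated molecules.

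In 83107 autosomal regions the 2 replicates gave the same call in each of the 4 groups. Of these, the 5560 members were 6.69%, the fourth most frequent of the 15 possible patterns. The opposite adult pattern, a peak in both E14.5 and both enterocyte libraries with none in ISC or at E12.5, was found at 1686 regions (0.358% of all autosomal regions), so members outnumbered it 3.30 times. Regions with peaks in all libraries except those of E12.5, named shared regions below, numbered 26129 (5.54%). With E12.5 called as well, 419 regions had peaks at both fetal stages and in ISC but none in enterocytes, and 155 had peaks at both fetal stages and in enterocytes but none in ISC.

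**Figure D1:**
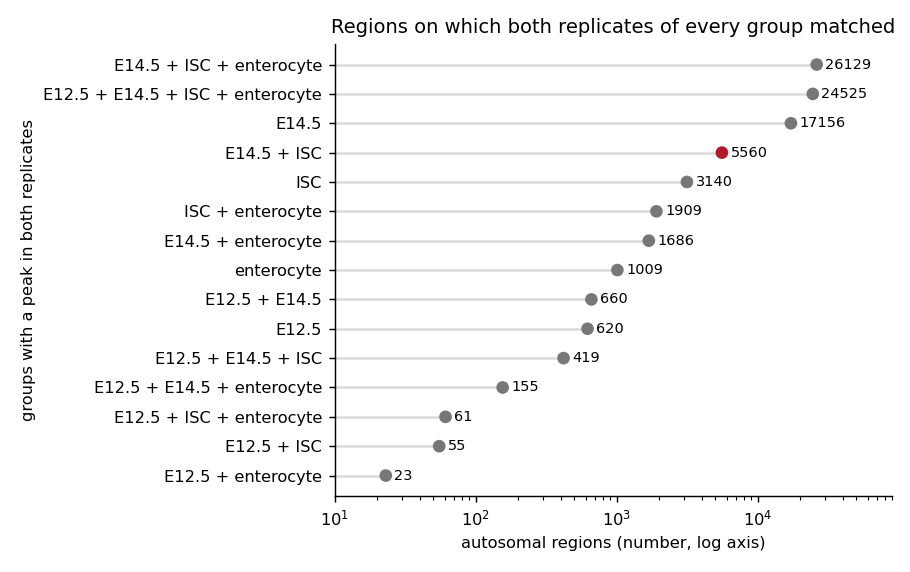
Number of autosomal regions (x axis, log scale) for each combination of groups with a peak in both replicates (y axis), over regions with the same call in both replicates of each group. The members, with peaks at E14.5 and in ISC only, are in red at 5560, above the opposite adult pattern of E14.5 and enterocytes at 1686.

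The excess of members over the opposite pattern was not seen with adult lists of equal length. ISC replicates had 203322 and 282490 peaks and enterocyte replicates 164157 and 232179, from 32423813 and 31438314 tags and from 43343543 and 39142426 tags. With the adult lists held to the 164157 highest-scoring peaks and the embryonic lists in full, 3342 regions met the rule and 3657 met the opposite one, and 1897 of the 3342 overlapped one of the 5560 members. With the E14.5 lists held to that length too, the counts were 1102 and 1187. Of those 1102 regions, 576 overlapped a member. With all lists held to the 84990 peaks of the shortest, the counts were 421 and 442, and 25 of the 421 overlapped a member. Equal list lengths take away the difference in list totals, and the part of this in the change of the 2 counts was not tested. Without ISC replicate 2, whose list was the longest of the adult ones, the counts were 9312 and 11428, so the order was reversed there too. Without enterocyte replicate 1, whose list was the shortest of the adult ones, they were 9009 and 6633. On each of the 19 autosomes members outnumbered the opposite pattern with full lists, by 2.49 times on chromosome 8 to 4.34 times on chromosome 11.

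Whether the stem cell call and the missing enterocyte call recurred was examined in libraries that had not been used to choose. The peaks of these libraries had entered the merging of all 8 lists and helped to set the region edges. The regions were therefore not fully independent of them. The 113072 autosomal regions called in both E14.5 libraries and in neither E12.5 library were sorted by 1 ISC and 1 enterocyte library, and the remaining ISC and enterocyte libraries were read. Choosing on replicate 1 of both, 22658 regions had an ISC peak and no enterocyte peak. Of these, 72.1% had a peak in ISC replicate 2 and 58.9% in enterocyte replicate 2, beside 69.9% and 59.7% of all 113072 regions (48.4% and 42.4% in the first replicates). The 15952 regions chosen the opposite way, with an enterocyte peak and no ISC peak, had a peak in ISC replicate 2 in 79.9% and in enterocyte replicate 2 in 71.6%. The held-out ISC library was therefore ahead of the held-out enterocyte library in both sets, by 13.1 and by 8.32 percentage points, and by 10.2 points over all 113072 regions. The lead was thus present in regions chosen for either call.

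In the other 3 choices of libraries the lead again had the same sign in both sets, but not the same sign in each choice. Choosing on ISC replicate 1 and enterocyte replicate 2, the held-out ISC library led by 35.0 points in regions chosen as ISC and by 32.2 in regions chosen as enterocyte. Choosing on ISC replicate 2 and enterocyte replicate 1, it trailed, with 44.2% against 56.6% in the first set and 45.7% against 59.5% in the second. Choosing on replicate 2 of both, it led by 11.4 and by 8.34 points. The lead in the first set minus that in the second was 4.82, 2.79, 1.42 and 3.09 points, all in the direction of the choice. These 4 differences share libraries and were not tested. The ISC call itself did not recur more often in regions chosen for it. Over the 4 choices they had a held-out ISC peak in 72.1%, 65.5%, 44.2% and 39.3%. Regions chosen as enterocyte had one in 79.9%, 75.8%, 45.7% and 41.0%. Of all 113072 regions, 69.9% had a peak in ISC replicate 2 and 48.4% in ISC replicate 1. The held-out enterocyte library was also called less often in regions chosen as ISC. Of the regions called in ISC replicate 2 or enterocyte replicate 2, 63.2% were called in both. This share was 51.9% for the ISC replicates, 51.7% for the enterocyte replicates and 45.3% for replicate 1 of each. Such a share rises with the number of calls. ISC replicate 2 and enterocyte replicate 2 had the most, in 69.9% and 59.7% of the 113072 regions, against 48.4% and 42.4% for replicate 1 of each. The part of these call rates in the overlaps, and of the overlaps in the held-out values, was not tested. With lists of at most 164157 peaks the difference between the sets was 0.702 to 2.86 points, and with lists of 84990 peaks, which keep stronger peaks, 6.62 to 8.20 points.

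**Figure D2:**
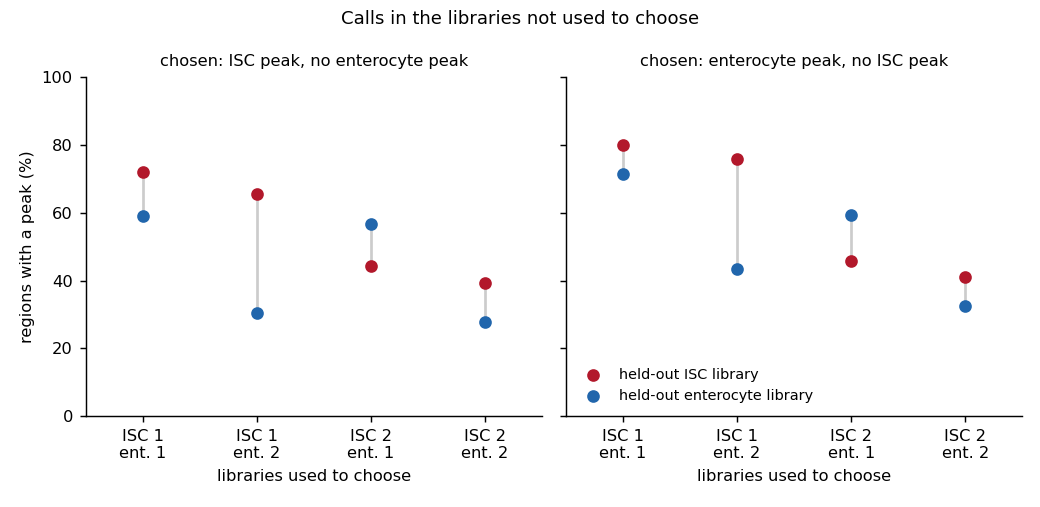
Share of regions with a peak (y axis, %) in the ISC library (red) and the enterocyte library (blue) that were not used to choose the regions, for the 4 ways to choose on 1 library of each (x axis). The left panel holds regions chosen for an ISC peak without an enterocyte peak and the right panel the reverse. In each column the same library is ahead in both panels, by 13.1 and 8.32 points in the first column.

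Members held fewer tags than shared regions, as did regions of the other patterns with fewer groups. Their median tag counts were 30 and 25 in the E14.5 replicates and 26 and 29 in the ISC replicates, against 44, 36, 36 and 45 at the shared regions. Tags were summed over all peaks of a library in a region, and are not levels per bp. Shared regions were longer, with a median of 919 bp against 495 bp. Regions called at E14.5 alone held 27 and 21 tags, those called in ISC alone 23 and 25, and those of the opposite adult pattern 31 and 24 tags at E14.5. The middle 50% of members held 25 to 38 tags in E14.5 replicate 1 and 24 to 38 tags in ISC replicate 2. The median percentile of a member's score within its own list was 43.4 and 51.2 at E14.5 and 35.5 and 37.9 in ISC, and at shared regions it was 71.0, 72.8, 62.3 and 72.1. Taking for each member the lowest of its 4 percentiles, the median was 15.0, 261 members (4.69%) were above 50 and 11 (0.198%) above 75. At shared regions the median of the lowest percentile over the same 4 lists was 39.3, and 36.4% were above 50. The lowest value of a member came from an ISC list in 1799 (replicate 1) and 1562 (replicate 2) cases.

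The share of regions without an enterocyte peak was lower among stronger peaks. Among the 45663 regions with peaks in both E14.5 and both ISC libraries and none at E12.5, 12.2% were members, 7.01% had a peak in enterocyte replicate 1 alone, 23.6% in enterocyte replicate 2 alone and 57.2% in both. Where the lowest percentile was at most 10, 1997 of 8492 regions (23.5%) were members. In the class from 40 to 50 it was 321 of 5103 (6.29%), and in the class from 80 to 90 it was 2 of 1254 (0.159%). The 2 members of the strongest class, of 408 regions (0.490%), were the chromosome 11 pair given with the named members. Regions with E14.5 and ISC peaks that were called in at least 1 E12.5 library lacked enterocyte peaks in 2235 of 67446 cases (3.31%), and were also stronger, with a median lowest percentile of 54.9 against 29.6.

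**Figure D3:**
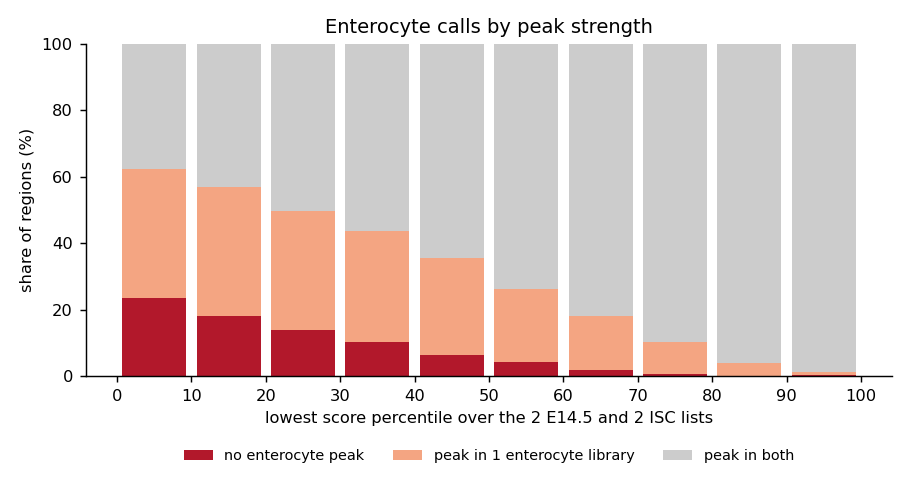
Regions with peaks in both E14.5 and both ISC libraries and none at E12.5, in 10 classes by the lowest score percentile over these 4 lists (x axis), split by enterocyte calls (y axis, share of regions in %). The members, in red, fall from 23.5% of the weakest class to 0.159% of the class from 80 to 90.

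The enterocyte lists began at higher tag levels and longer peaks than the E14.5 and ISC lists. The lowest 5% of peaks in enterocyte replicate 1 reached 0.761 RPM (tags scaled by the library total), and in enterocyte replicate 2 0.639 RPM, against 0.586 and 0.604 in the ISC libraries and 0.550 and 0.373 in the E14.5 libraries. Averaged over the 4 libraries with a peak, 37.6% of members lay under that level of enterocyte replicate 1 and 10.6% under that of replicate 2. Enterocyte replicate 1 had the widest peaks, with a median of 849 bp and only 5% shorter than 569 bp, and the fragment size modelled by the caller was 164 bp there, against 57 to 126 bp in the other 7 libraries. Members had a median length of 495 bp and 71.7% of them were shorter than 569 bp. The part of these differences between the lists in the missing enterocyte calls was not tested. When each peak was replaced by 100 bp either side of its summit, so that all intervals had equal width, 6674 regions met the rule and 2149 the opposite one.

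The rule's cutoff is the caller's p-value of 1e-05, a score of 50, and many members stood close to it. In 2256 members (40.6%) at least 1 of the 4 peaks scored under 55. The same share was not computed for the other patterns, so it is not shown to be particular to members. Just inside, chr6:38052804-38053218 scored 113.87 and 50.00 in the E14.5 replicates and 53.12 and 57.09 in ISC. Just inside as well, chr6:122065361-122065976 scored 53.97, 61.25, 50.00 and 67.76 in the same order. Just outside, chr2:109486855-109487456 failed by a peak of 32 tags and a score of 50.00 in enterocyte replicate 1, and chr3:16164684-16165272 by a peak of 22 tags and a score of 50.00 in enterocyte replicate 2. The 13974 regions that failed by 1 enterocyte peak had a median score of 74.5 in it. That peak held 1.02 RPM in the median, beside 0.976 RPM in ISC at the same regions.

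E14.5 and ISC levels at members differed by less than the spread of replicates. The median member held 0.868 and 0.717 RPM in the E14.5 replicates and 0.802 and 0.922 RPM in the ISC replicates. The group means were 0.792 ± 0.107 and 0.862 ± 0.0852 RPM (SD, n = 2 each), and the replicates of the groups overlapped. Over single members the E14.5 minus ISC difference of mean log2 RPM had a median of -0.18. It was -0.11 over all 113109 autosomal regions called in these 4 libraries and -0.14 at shared regions. The middle 90% of members lay between -0.71 and 0.31, and 5519 of 5560 (99.3%) were within 1 log2 unit. This range and this share were not computed for other regions. Both ISC values were above both E14.5 values in 1410 members (25.4%), beside 19.1% of all 113109 autosomal regions called in these 4 libraries. The reverse held in 379 members (6.82%), beside 8.81% of those regions. Scaling by the tags in regions called in all 8 libraries in place of library totals gave 25.4% and 7.79%, beside 20.5% and 14.0%. Peaks in all 4 libraries are a condition of the rule, so the similarity of levels is in part its consequence.

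**Figure D4:**
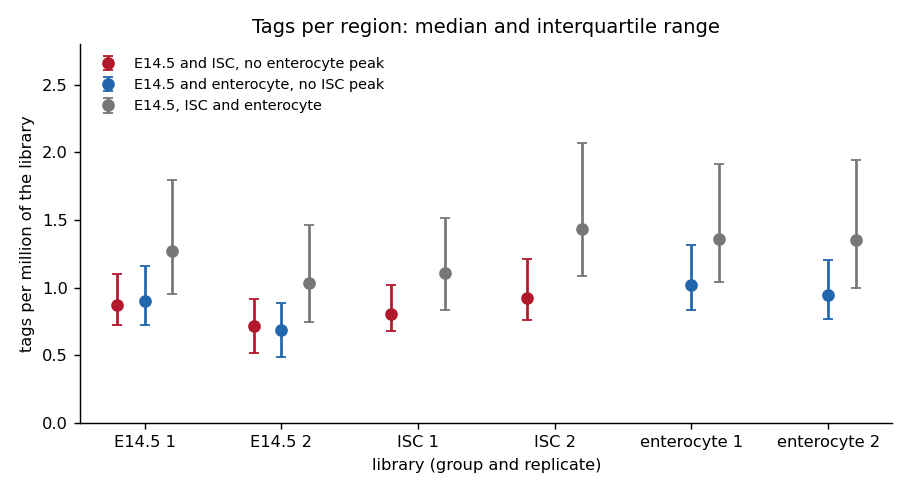
Tags per region in RPM (y axis, tags scaled by the library total), as the median (points) and the interquartile range (bars) over members (red), regions of the opposite adult pattern (blue) and regions shared by E14.5, ISC and enterocytes (grey), in each library with a peak (x axis). Members sit between medians of 0.717 and 0.922 RPM, under the shared regions at 1.03 to 1.43 RPM.

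Within a member the summits of E14.5 and ISC peaks lay about as far apart as those of replicates, in regions that the rule required to hold a peak of all 4 libraries and that are short. Summits lay a median of 54 bp apart between the E14.5 replicates and 57 bp between the ISC replicates, and 54 to 56 bp apart in the 4 pairs across the groups. They were within 100 bp of each other in 77.0% and 74.5% of members for the replicate pairs and in 73.9% to 76.8% for the pairs across. At shared regions, which are longer, the distances were 77 to 83 bp. Across the 5560 members the Pearson correlation of log2 tags was 0.65 between E14.5 replicates, 0.76 between ISC replicates and 0.64 to 0.75 across the groups, as a description of regions that share length and library depth.

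Members were short and mostly held 1 peak per library, as did regions called at E14.5 alone or in ISC alone. Their median length of 495 bp compares with 919 bp at shared regions and 756 bp for the opposite adult pattern, both of which also contain enterocyte peaks, and with 388 bp for the 17156 regions called at E14.5 alone and 445 bp for the 3140 called in ISC alone. A library had more than 1 peak in 2.84% of members, 10.6% of regions of the opposite adult pattern and 27.8% of shared regions. This share was 0.764% for regions called at E14.5 alone and 0.0318% for those called in ISC alone. Together the members covered 3.07 Mb.

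Enterocyte peaks were usual in the surroundings of a member. The nearest enterocyte peak was a median of 1866 bp from the member's edge, within 1 kb in 1676 members (30.1%) and within 200 bp in 339 (6.10%), and beyond 10 kb in 392 (7.05%). The share within 1 kb was 19.4% counting peaks of enterocyte replicate 1 alone and 25.9% counting those of replicate 2 alone, and the regions that met the rule with the stricter 50% of each list or with merging within 500 bp had 16.4% and 16.8%. For regions called at E14.5 alone it was within 1 kb in 30.4%, and for regions called in ISC alone in 29.1%, close to the members' share. In the opposite adult pattern the nearest ISC peak was within 1 kb in 31.2%. The nearest E12.5 peak was farther from members, with a median of 3873 bp, and within 1 kb in 896 members (16.1%). The E12.5 lists were also shorter, with 100314 and 84990 peaks against 164157 and 232179 in enterocytes. The same E12.5 share was 15.1% at shared regions and 14.2% in the opposite adult pattern. It was 16.3% for regions called at E14.5 alone and 15.8% for those called in ISC alone, so it was not particular to members.

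**Figure D5:**
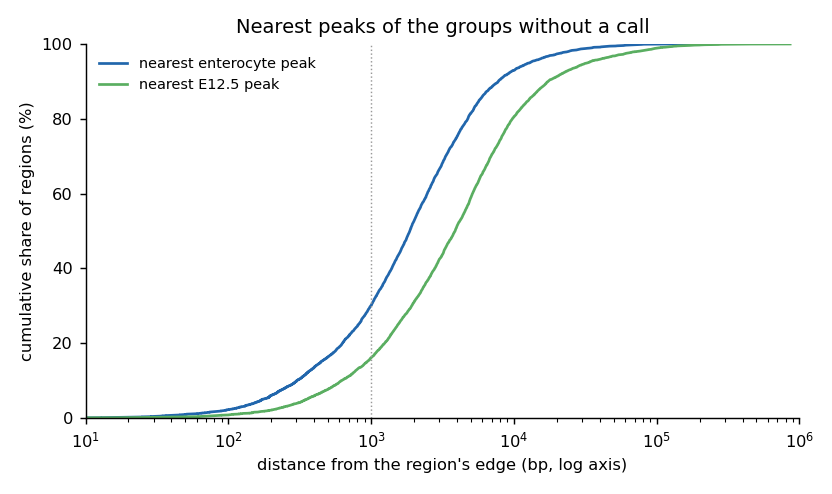
Cumulative share of the 5560 members (y axis, %) by the distance from the member's edge to the nearest enterocyte peak (blue) and the nearest E12.5 peak (green), in bp on a log axis. The dotted line marks 1 kb, where the curves stand at 30.1% and 16.1%.

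The next regions on either side of a member were called in enterocytes about as often as autosomal regions in general. Of the 11120 regions adjacent to members, a median of 2074 bp away, 36.7% were called in enterocyte replicate 1 and 50.5% in enterocyte replicate 2, beside 34.6% and 47.8% of all autosomal regions. In the ISC libraries the adjacent regions were called in 41.3% and 57.6%, beside 41.2% and 56.9%. A member had another member next to it in 106 cases (1.91%), and 0.953% of adjacent regions were members, beside 1.18% of all autosomal regions. No run was longer than 2 members, and 53 such pairs were found.

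Members were spread over all autosomes. They made up 0.974% of the regions of chromosome 15 to 1.35% of those of chromosome 19, and their density went from 1.73 per Mb on chromosome 3 to 3.19 per Mb on chromosome 19. Among regions with E14.5 and ISC peaks and no E12.5 peak their share was 10.1% on chromosome 15 and 14.1% on chromosome 19, the lowest and highest of the 19. Of 2419 windows of 1 Mb that held a region, 541 had no member, the median was 2 and the highest count was 11. The 4 windows with 11 members began at 102000001 on chromosome 14, 88000001 on chromosome 12, 130000001 on chromosome 2 and 42000001 on chromosome 18, and held 197 to 295 regions each.

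The 10 strongest members, ranked by the lowest percentile over the 4 lists, began with 2 of another kind. The region chr11:3049201-3054654 held 2552 and 2610 tags at E14.5 and 2675 and 2515 in ISC, and chr11:3055537-3059236, the next region, held 1404 and 973 tags at E14.5 and 1503 and 1297 in ISC. These neighbours, 883 bp apart, were the only members with over 500 tags. The first had a peak of 2513 tags of enterocyte replicate 2 at 218 bp and one of 4520 tags of E12.5 replicate 2 at 202 bp, so the stretch carried very high peaks in groups that the rule counts as absent. The other 8 held 28 to 82 tags in the E14.5 and ISC libraries.

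Next in rank, chr10:39982065-39982772 held 54 and 42 tags at E14.5 and 38 and 49 in ISC, at an authors' fold enrichment over local background of 8.23, 10.7, 8.71 and 7.71. Its nearest enterocyte peak, 1339 bp away, held 41 tags. The region chr5:65177633-65178136 held 41 and 50 tags at E14.5 and 39 and 36 in ISC, at 10.6, 12.2, 10.2 and 7.78 fold. Its 4 summits lay within 55 bp and the nearest enterocyte peak was 3736 bp away. These 2 were the strongest members apart from the chromosome 11 pair, with lowest percentiles of 85.1 and 81.9.

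The region chr12:41738908-41739536 held 48 and 28 tags at E14.5 and 50 and 34 in ISC, with an enterocyte peak of 29 tags 6075 bp away. The region chr6:52553649-52554245 held 37, 29, 31 and 46 tags in the same order, and its nearest enterocyte peak was 1746 bp away. The region chr7:35938127-35938818 held 54, 57, 40 and 48 tags, but enterocyte replicate 1 had 45 tags in a peak at 242 bp and E12.5 replicate 2 had 59 tags in one at 215 bp. The absence there is thus confined to a short stretch. The region chr10:42020011-42020647 held 40, 29, 38 and 39 tags, with the nearest enterocyte peak at 5294 bp. The region chr6:137420188-137421198 held 82, 46, 40 and 66 tags, the widest spread among these 8, with the nearest enterocyte peak at 2093 bp. The region chr14:29865325-29865950 held 39, 42, 39 and 47 tags, and no enterocyte peak lay within 11205 bp or E12.5 peak within 21454 bp, the most isolated of the 10.

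Members far from any peak of the groups without a call were looked for among those with a percentile of at least 10 in all 4 lists, which leaves out weaker members that can lie farther away. Of these, the 5 most isolated had their nearest enterocyte or E12.5 peak 63502 to 80074 bp away. The region chr9:35709197-35709789 held 34 and 18 tags at E14.5 and 26 and 32 in ISC, with the nearest enterocyte peak 80074 bp and the nearest E12.5 peak 83375 bp away. The region chr4:71182519-71182913 held 40, 17, 23 and 23 tags and had its nearest enterocyte peak at 79367 bp. The others were chr15:65509710-65510161 with 34, 14, 23 and 24 tags, chr8:58150422-58150861 with 31, 23, 23 and 23 and chr2:138857451-138858152 with 31, 21, 21 and 37. In 4 of the 5, E14.5 replicate 1 had the highest tag count, as it had in the median of all members (30, 25, 26 and 29 tags). In RPM, ISC replicate 2 was ahead of it at chr9:35709197-35709789, with 1.02 against 0.984. The matching share over all members was not computed.

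The 3 strongest of the 13974 regions that missed the rule by a single enterocyte peak are given for comparison. The region chr16:96485460-96486174 held 53 and 49 tags at E14.5, 48 and 51 in ISC and 53 in enterocyte replicate 2, and had no peak in enterocyte replicate 1. The region chr1:110275050-110276168 held 58, 65, 65 and 69 tags and then 83 in enterocyte replicate 2, and chr2:129422006-129422919 held 63, 65, 41 and 50 tags and then 75. In these 3 regions the enterocyte library with a peak was at 1.35 to 2.12 RPM and the ISC libraries at 1.26 to 2.19 RPM, and the enterocyte value was below both ISC values in the first, between them in the second and above both in the third.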

How the data were processed

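Of each library the authors deposited 1 list of peaks. MACS 1.4.2 called them on each library by itself, with no control and a p cutoff of 1e-05, from alignments without duplicates, per the file headers. The submitters' processing notes name Bowtie 1.1.2, bcl2fastq 1.8.4, SAMtools 1.2 and the mm9 build. Deposited tags per peak are whole-number counts, not normalized. The deposited score is 10 times the negative log10 of the p-value from MACS, and the deposited fold is a ratio to local background, both per the file headers. Depth was 31438314 to 55442400 tags per library.

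Lists were merged, regions classed by the libraries with a peak, and tags summed per region and scaled to RPM of the library total, with Python 3.11.15 and pandas 2.3.3. No test is reported, since all lists entered the rule and 0.333 is the smallest p that exact permutation allows with 2 libraries per group. Tag counts were not fitted with a count model, since a region without a peak has no count. Merging, classing and distances were tested on simulated data. The regions named are the 10 strongest members, the 5 most isolated with a percentile of at least 10 in all 4 lists, the longest run and the 3 strongest just outside, with the lowest scores on each side of the cutoff. The members, lists and comparisons were chosen with earlier results of these data known. Genes and sequences were not analysed here, since the reference tables used are of GRCm38.p6 and positions were not converted.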

Additional observations from a re-analysis of the deposited data

Results flagged for a closer look

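Outside the autosomes, 5 of the 4470 regions on chromosome X had the same calls as the members (0.112%), and none of the 56 regions on chromosome Y did. They held 15 to 55 tags in the E14.5 and ISC libraries. Their nearest enterocyte peaks lay 1746 to 76075 bp away, 4 of them at 16853 bp or more. X regions lay outside the comparisons above, and the adults were males while the sex of the embryos is not given in the sources used here.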

How the results depend on the processing

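The number of members was 5560 and that of the opposite adult pattern 1686. Alternatives were 421 and 442 with lists of the 84990 highest-scoring peaks, 548 and 655 with the 84990 highest-fold peaks, 2722 and 949 with the stricter 50% of each list, 3096 and 469 where peaks had to cover 50% of a region, 1102 members with lists of at most 164157 peaks, and 3342 and 3657 when only the adult lists were held to that length. The opposite pattern gave 1187 with all lists so held, and merging within 500 bp or summit intervals kept both counts within 1.5 times. Only 261 of the 2722 regions overlapped a member, against 3087 of 3096. Leaving out 1 library gave 6374 to 16318 members and 1964 to 11428 regions of the opposite pattern. Members numbered over 1.5 times as many without ISC replicate 1 (16062), enterocyte replicate 2 (16318), ISC replicate 2 (9312), enterocyte replicate 1 (9009) or E14.5 replicate 2 (8495), fewer libraries being required to match. The opposite pattern was the larger of the pair without ISC replicate 2 and with lists of 84990 peaks (by score or fold) or at most 164157 peaks, but not with the stricter 50% of each list.

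The share of members with an enterocyte peak within 1 kb was 30.1%, 16.4% with the stricter 50% of each list, 16.8% with merging within 500 bp, which absorbs close peaks, and 19.4% to 25.9% by 1 enterocyte library alone. The difference of E14.5 and ISC levels was -0.0700 RPM, -0.0438 with the other scaling and -0.146 to 0.00570 without 1 library. The E14.5 to ISC summit distance was 55.5 bp with the best peak taken by score or by tag count. The share next to another member was 1.91%, 1.65% with the stricter 50% of each list and 2.13% with merging within 500 bp. The mean held-out difference was 3.03 points, 1.89 with at most 164157 peaks and 7.14 with 84990, the cause of which was not tested. The lists of at most 164157 peaks (all or adult), the highest-fold lists, the summit intervals and the held-out alternatives were chosen after seeing the data. No paired analysis was possible because the counts come from no test and the replicate numbers are not said to mark a shared animal or batch. A missing peak means only that tags did not pass the cutoff. The libraries without a call were the deeper ones, with 55237390 and 55442400 tags at E12.5 and 43343543 and 39142426 in enterocytes. Those with a call had 34567645 and 34889223 tags at E14.5 and 32423813 and 31438314 in ISC. The part of depth in the missing calls was not tested.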
